A study of Mus musculus with 24 samples.

Results

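The 9 immediate early genes Egr1, Fos, Jun, Junb, Ier2, Klf6, Btg2, Dusp1 and Zfp36 were followed in mouse liver, out of 15160 genes with deposited read counts. They were picked by gene name as textbook members of the class after results of these libraries were known, so their levels and fold changes are given as a description without a test. All 9 passed edgeR's filter on low counts, as did 13336 genes in all. The libraries came from male mice of 5 months by the labels, 6 in each of 4 groups. WT mice carried floxed Nfe2l2 alleles (NRF2fl/fl), and NRF2 KO mice (NRF2fl/(alb)) carried the same alleles with a Cre recombinase under the albumin promoter, which deletes part of the gene in hepatocytes. The study proposes that the Nfe2l2 mRNA left in NRF2 KO liver most likely comes from macrophages of the liver. From 8 weeks of age they were fed for 8 weeks a Con diet with 0.86% methionine or an MR (methionine-restricted) diet with 0.17%, both made from amino acids and both free of cysteine. In the study's experiment with tissue harvest, calorimetry and a return to home cages came between those 8 weeks and death. All mice were killed by CO2 and decapitation after a 4 h fast, and the liver was flash frozen. The mice WT_CON_7604 and WT_MR_7612, which the study left out as outliers, were left out here too, which left 5 mice in each WT group and 6 in each NRF2 KO group.

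Immediate early genes are transcribed within minutes of a signal at the cell surface, because the factors that switch them on are already present in the resting cell. Growth factors, stress, cytokines and hormones such as glucagon act on them through MAP kinases and serum response factor, or through cAMP and CREB, and their mRNAs are short-lived. In liver they are known for their quick response to partial hepatectomy, to feeding and fasting and to handling of the tissue. Their products fall into transcription factors that pass the signal on (Fos, Jun, Junb, Egr1, Klf6, and the regulator Ier2), an antiproliferative protein (Btg2), and feedback regulators that end the signal, namely the MAP kinase phosphatase Dusp1 and the mRNA-decay protein Zfp36.

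RefSeq promoter windows on GRCm38.p6 were on hand for 7 of the 9 genes, Fos, Jun, Junb, Klf6, Btg2, Dusp1 and Zfp36. The 250 bases before the start site are shown for Junb, Klf6, Btg2 and Dusp1, which were past an adjusted p of 0.05 in at least 1 comparison. Because the genes were chosen with results known, this served only to pick the sequences shown. The calls of Klf6, Btg2 and Dusp1 were each lost in some fits with a mouse left out. Fos, with few counts in any library, is left out. Sequences run 5′ to 3′ on the strand of the gene, and capitals mark matches on either strand to the motifs searched.
Junb, chr8:84978749-84978998, minus strand: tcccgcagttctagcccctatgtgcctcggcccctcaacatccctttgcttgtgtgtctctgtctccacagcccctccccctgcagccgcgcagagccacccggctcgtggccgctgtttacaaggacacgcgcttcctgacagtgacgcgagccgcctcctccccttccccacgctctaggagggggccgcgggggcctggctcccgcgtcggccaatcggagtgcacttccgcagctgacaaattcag
Klf6, chr13:5861239-5861488, plus strand: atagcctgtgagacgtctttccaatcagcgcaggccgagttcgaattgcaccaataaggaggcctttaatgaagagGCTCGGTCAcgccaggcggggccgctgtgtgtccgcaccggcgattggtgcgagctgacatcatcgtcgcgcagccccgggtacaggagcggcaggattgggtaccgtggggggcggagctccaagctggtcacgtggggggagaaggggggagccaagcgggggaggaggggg
Btg2, chr1:134079156-134079405, minus strand: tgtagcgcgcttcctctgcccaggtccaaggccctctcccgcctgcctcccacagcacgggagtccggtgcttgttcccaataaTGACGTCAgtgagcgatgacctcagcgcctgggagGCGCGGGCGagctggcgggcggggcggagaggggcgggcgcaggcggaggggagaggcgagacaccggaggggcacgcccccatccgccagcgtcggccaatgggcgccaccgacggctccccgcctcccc
Dusp1, chr17:26508473-26508722, minus strand: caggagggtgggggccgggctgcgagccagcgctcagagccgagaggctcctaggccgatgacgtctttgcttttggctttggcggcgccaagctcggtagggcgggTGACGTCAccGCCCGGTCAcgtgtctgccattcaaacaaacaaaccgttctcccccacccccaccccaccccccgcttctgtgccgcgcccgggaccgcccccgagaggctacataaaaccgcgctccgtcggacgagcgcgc
The 5 motifs searched on both strands were the CArG box of serum response factor, the CREB site TGACGTCA, the AP-1 site TGANTCA, the antioxidant response element core TGACNNNGC of NRF2 and the EGR site GCGNGGGCG. TGACGTCA stood at position -166 before the start in Btg2 and at -143 in Dusp1, and it is found in 1.55% of 32851 promoter windows of this length. TGACNNNGC, found in 10.2% of all windows, had a match at -133 in Dusp1 and at -174 in Klf6. GCGNGGGCG (4.70% of windows) matched at -131 in Btg2 and at -105 in Zfp36, and a CArG box (1.47% of windows) at -58 in Zfp36. The windows of Fos, Jun and Junb held no match to any of the 5 motifs, and TGANTCA (6.75% of windows) matched in none of the 7 genes. Only exact matches within these 250 bases were sought, so sites farther out or with other letters were not covered. No 2 matches overlapped. With windows for 7 of 9 genes no share over the group is given, and a match in letters says nothing of binding in these livers.

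Total counts ran from 6197291 to 22068338 in the 22 mice, with medians of 14860992 in WT Con and 11538109 in WT MR. Levels are given in CPM, the count of a gene scaled to a common library size by TMM, and each count comes from reads near the 3′ end of the transcript. Hepatocyte markers led these libraries, with summed levels of Alb, Apoa1, Ttr, Cps1 and Fabp1 from 73979 to 134782 CPM. Nfe2l2, the targeted gene, went against the label in one WT library: it was at 324 CPM in the library labelled WT_CON_7607, at 94.0 to 125 CPM in the other 9 WT libraries, and at 202 to 339 CPM in the NRF2 KO libraries. The higher level in NRF2 KO is opposite to the lower Nfe2l2 mRNA that the study measured by qPCR with primers in the deleted part. Reads at the 3′ end do not measure the deletion itself. The doubt about the label rests on Nfe2l2 alone. Most log2 differences and calls that rest on WT Con are therefore also given without that library. In whole liver, fewer cells of a type and less RNA per cell cannot be told apart.

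**Figure D1:**
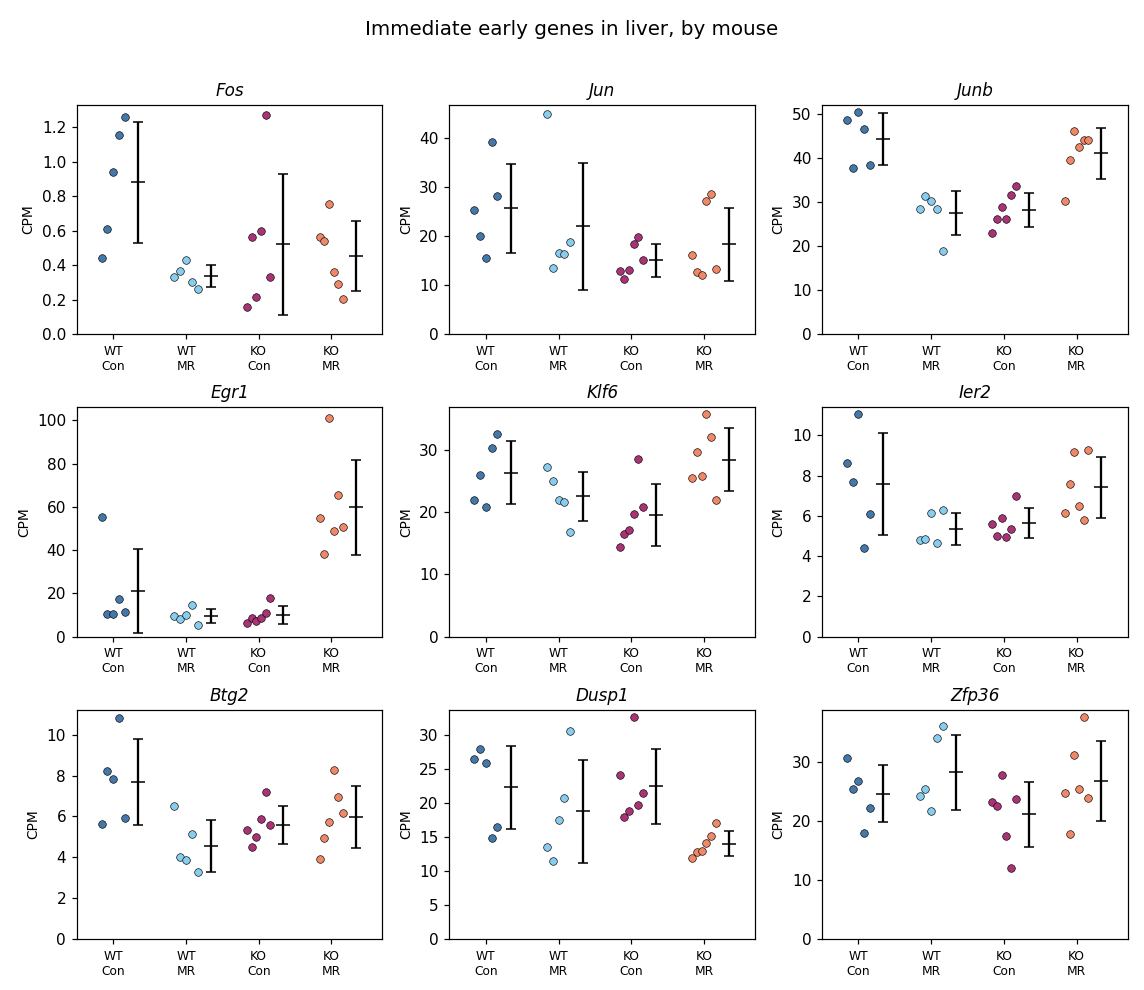
CPM of the 9 genes in each of the 22 mice (points) by group, with the group mean ± SD (bar beside the points); KO is NRF2 KO, and each panel has its own linear axis from 0. Egr1 is above 38 CPM in the 6 NRF2 KO MR mice and in 1 WT Con mouse, and Junb is high in WT Con and NRF2 KO MR and lower in the other 2 groups.

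Egr1, a zinc-finger transcription factor induced through serum response factor, had the largest log2 difference of the 9 genes for MR in NRF2 KO and for genotype on MR. In NRF2 KO mice its lowest, median and highest levels were 6.26, 8.69 and 18.0 CPM on Con and 38.3, 52.6 and 101 CPM on MR. All 6 NRF2 KO MR mice were above all 6 NRF2 KO Con mice. The mean was 9.93 ± 4.26 CPM (SD, n = 6) on Con and 59.8 ± 22.03 CPM (SD, n = 6) on MR, 6.11-fold higher (log2 fold change 2.61, SE 0.41).

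In the WT groups the 5 mice are given in the order of their numbers, with the library labelled WT_CON_7607 as the fourth of WT Con. Egr1 was at 55.3, 10.5, 10.6, 17.4 and 11.3 CPM in WT Con. In WT MR it was at 9.56, 8.10, 9.94, 14.8 and 5.44 CPM. The WT Con mouse WT_CON_7602 thus stood at the level of the NRF2 KO MR mice, and the other 4 lay close to the WT MR and NRF2 KO Con mice. The log2 difference of MR from Con in WT was -1.16 (SE 0.46), and it was -0.41 without WT_CON_7602 and -1.21 without the library labelled WT_CON_7607. NRF2 KO mice were lower than WT on Con by a log2 difference of -1.09 (SE 0.43), which was -0.35 without WT_CON_7602 and -1.14 without the library labelled WT_CON_7607. On MR they were higher, with a log2 difference of 2.68 (SE 0.45), and the groups did not overlap.

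Junb, an AP-1 subunit that often restrains Jun, differed between groups with little spread within them. Its levels in the same order were 48.7, 37.8, 50.5, 46.6 and 38.3 CPM in WT Con. In WT MR they were 28.3, 31.4, 30.3, 28.5 and 18.9 CPM. Every WT MR mouse was below every WT Con mouse. In NRF2 KO mice the lowest, median and highest levels were 22.9, 27.5 and 33.5 CPM on Con and 30.2, 43.3 and 46.1 CPM on MR. Here the order was turned round, and 1 MR mouse, KO_MR_7625, lay among the Con values. MR differed from Con by a log2 fold change of -0.69 (SE 0.13) in WT and 0.55 (SE 0.12) in NRF2 KO.

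NRF2 KO mice had less Junb than WT on Con, with a log2 fold change of -0.66 (SE 0.12) and no overlap between the groups, and more on MR, with 0.58 (SE 0.13). Without the library labelled WT_CON_7607 the log2 fold change was -0.67 for MR in WT and -0.64 for genotype on Con. The gene overlaps Prdx2 on the opposite strand (Junb at chr8:84974484-84978718, minus strand, GENCODE M21 on GRCm38), and whether the authors' counting used the strand is not given in the sources used here.

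Fos, the partner of the Jun proteins in AP-1, was close to the limit of detection. Its 22 libraries held 2 to 30 counts each. The 5 WT Con mice were at 0.439, 0.608, 0.939, 1.16 and 1.26 CPM, and the 5 WT MR mice at 0.332, 0.364, 0.432, 0.301 and 0.259 CPM. The 2 groups did not overlap, but the lowest Con and the highest MR value were 6 and 5 counts, which is within counting error. The log2 fold change was -1.38 (SE 0.46), and -1.28 without the library labelled WT_CON_7607. In NRF2 KO mice Fos ran from 0.155 to 1.27 CPM on Con and from 0.204 to 0.755 CPM on MR, with a log2 difference of -0.12 (SE 0.42).

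Jun, the founding AP-1 subunit (chr4:95049034-95052222, minus strand, with the antisense gene Junos on the other strand), varied more between mice than between groups. It was at 25.2, 19.998, 15.4, 39.2 and 28.2 CPM in WT Con, and at 44.9, 13.5, 16.4, 16.3 and 18.7 CPM in WT MR. The first of these, WT_MR_7609, alone set the spread of the WT MR group. The log2 difference of MR from Con was -0.21 (SE 0.34) in WT and 0.30 (SE 0.31) in NRF2 KO, where Jun ran from 11.2 to 19.8 CPM on Con and from 12.1 to 28.5 CPM on MR. The difference in WT was -0.66 without WT_MR_7609 and 0.00 without the library labelled WT_CON_7607. On Con, NRF2 KO differed from WT by -0.77 (SE 0.32), or -0.57 without that library.

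Klf6, a zinc-finger factor with growth-restraining roles, differed between diets in NRF2 KO mice and little in WT. Its lowest, median and highest levels in NRF2 KO were 14.4, 18.4 and 28.5 CPM on Con and 22.05, 27.7 and 35.8 CPM on MR (log2 fold change 0.56, SE 0.16). The Con mouse KO_CON_7622 had 28.5 CPM and lay among the MR mice. In WT the levels were 20.9 to 32.6 CPM on Con and 16.8 to 27.3 CPM on MR, with a log2 difference of -0.22 (SE 0.17), or -0.16 without the library labelled WT_CON_7607.

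Ier2, a small nuclear protein of the growth-factor response, had lower values on MR in WT and higher values on MR in NRF2 KO, and the groups overlapped in both genotypes. It ran from 4.41 to 11.1 CPM in WT Con, 4.67 to 6.30 in WT MR, 4.96 to 6.97 in NRF2 KO Con and 5.82 to 9.29 in NRF2 KO MR. The lowest WT Con value was that of the library labelled WT_CON_7607. The log2 differences were -0.51 (SE 0.19) in WT, or -0.64 without that library, and 0.39 (SE 0.17) in NRF2 KO.

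Btg2, an antiproliferative protein that brings deadenylases to mRNAs, was at 5.63, 8.21, 7.83, 10.8 and 5.92 CPM in WT Con. In WT MR it was at 6.51, 4.00, 3.89, 5.12 and 3.28 CPM. Of the 5 MR mice, 4 were below every Con mouse, and WT_MR_7609 was above 2 of them. The log2 fold change was -0.75 (SE 0.21), and -0.59 without the library labelled WT_CON_7607, which held the highest value. In NRF2 KO mice the levels were 4.50 to 7.17 CPM on Con and 3.92 to 8.25 CPM on MR, with a log2 difference of 0.12 (SE 0.18).

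Of the feedback regulators, Dusp1, which removes phosphate from MAP kinases, was lower on MR in NRF2 KO mice, against the direction of Egr1, Junb and Klf6. Its lowest, median and highest levels there were 17.9, 20.6 and 32.7 CPM on Con and 11.9, 13.6 and 17.1 CPM on MR. All 6 MR mice were below all 6 Con mice (log2 fold change -0.68, SE 0.21). In WT mice it ran from 14.8 to 28.0 CPM on Con and from 11.5 to 30.7 CPM on MR, with a log2 difference of -0.26 (SE 0.23), or -0.37 without the library labelled WT_CON_7607. In GENCODE M21 the Dusp1 model spans chr17:26505590-26562128 on the minus strand and overlaps Ergic1 on the other strand.

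Zfp36 (tristetraprolin), which binds AU-rich mRNAs such as those of cytokines and of immediate early genes and speeds their decay, showed small differences. It ranged from 17.9 to 30.7 CPM in WT Con, 21.7 to 36.1 in WT MR, 11.99 to 27.9 in NRF2 KO Con and 17.8 to 37.6 in NRF2 KO MR. All 4 groups overlapped. MR differed from Con by 0.19 (SE 0.21) in WT, or 0.10 without the library labelled WT_CON_7607, and by 0.34 (SE 0.19) in NRF2 KO on the log2 scale.

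Counted over the 9 genes, 8 were lower on MR in WT, with a median log2 fold change of -0.51 against -0.01 over all genes tested, and 7 were higher on MR in NRF2 KO, with a median of 0.34 against 0.00. Fos, Junb and Btg2 were past an adjusted p of 0.05 in edgeR's quasi-likelihood test in WT, all lower, where 6.91% of all genes tested were called lower. The calls of Fos and Btg2 were lost without the library labelled WT_CON_7607. There Junb and Ier2 were the members past an adjusted p of 0.05, beside 11.1% of all genes called in either direction. The call of Fos stood in 9 of the 20 fits with a mouse left out in which it was tested. In NRF2 KO, Egr1, Junb and Klf6 were past it in the higher direction, where 6.23% of genes were called, and Dusp1 in the lower, where 6.34% were. On Con, 8 of the 9 were lower in NRF2 KO than in WT and 1 of them, Junb, was past the threshold, in the direction in which 1.27% of genes were called. On MR, 6 were higher in NRF2 KO and Egr1 and Junb were past it, where 0.555% of genes were called higher. Because the genes were chosen with results known, these counts describe the members and nothing is read from them against the background. With each mouse left out in turn the count ran from 1 to 3 in WT, 2 to 4 in NRF2 KO, 1 to 2 for genotype on Con, and stayed at 2 for genotype on MR. Over the 13291 to 13474 genes tested in those fits, calls ran from 1416 to 1974, 1188 to 2027, 181 to 314 and 191 to 336 in the same order.

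The mice of the groups were also set against each other directly. In WT, 2 genes, Fos and Junb, lay wholly lower on MR, as did 4.00% of all genes tested. In NRF2 KO, Egr1 lay wholly higher (2.62% of genes) and Dusp1 wholly lower (2.83%). By genotype, Junb lay wholly lower in NRF2 KO on Con (0.885%) and Egr1 wholly higher on MR (1.69%). The summed level of the 9 genes was 162 to 223 CPM in WT Con, 124 to 159 in WT MR, 113 to 146 in NRF2 KO Con and 164 to 245 in NRF2 KO MR. The 2 diet comparisons have no mice in common, whereas each genotype comparison shares its groups with them.

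**Figure D2:**
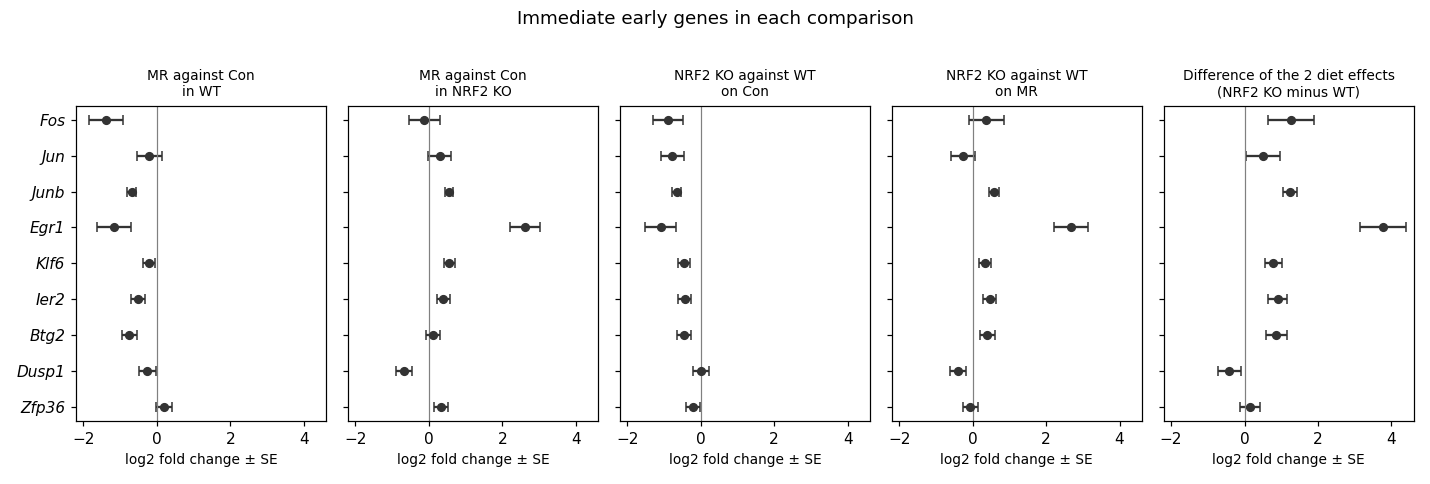
Log2 fold change ± SE of the 9 genes from one model over 22 mice, for MR against Con in each genotype, for NRF2 KO against WT on each diet, and for the difference of the 2 diet effects (NRF2 KO minus WT). Egr1 lies at 2.61 for MR in NRF2 KO and at -1.16 in WT, and Dusp1 lies on the other side of 0 from Egr1 and Junb in NRF2 KO.

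The difference between the 2 diet effects, NRF2 KO minus WT, was 3.77 (SE 0.62) on the log2 scale for Egr1 and 1.24 (SE 0.18) for Junb. It was above 0 for 8 of the 9 genes, with a median of 0.87 against 0.00 over all genes, and below 0 for Dusp1 (-0.42, SE 0.31). Ier2 stood at 0.90 (SE 0.26), Btg2 at 0.87 (SE 0.28), Klf6 at 0.78 (SE 0.23) and Fos at 1.26 (SE 0.63). These 4 and Dusp1 were also read without the library labelled WT_CON_7607, with 1.03 for Ier2, 0.71 for Btg2, 0.72 for Klf6, 1.16 for Fos and -0.31 for Dusp1. The genes called for this interaction were 6 of 13336, or 0.0450% (0.0225% in the direction of Egr1 and Junb), and these were Abcc4, Junb, Nrxn2, Egr1, Abcg2 and Rell1. Without the library labelled WT_CON_7607 the count over all genes was 12. Junb and Egr1 were chosen with results known, and the 4 genes that are no members were singled out after their values were seen. Nothing is read from the place of the members among the 6. The value of Egr1 was 3.03 without WT_CON_7602 and 3.82 without the library labelled WT_CON_7607, and that of Junb was 1.22 without the latter.

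The 2 mice left out were scaled together with the other 22 for a separate look. WT_CON_7604 had more of several members than any other WT Con mouse: Jun was at 74.6 CPM, Junb at 77.5, Klf6 at 61.5 and Btg2 at 34.7. Fos was at 3.61 CPM (60 counts) in that mouse. Its Egr1 level of 46.0 CPM came second to the 55.6 CPM of WT_CON_7602 in that scaling, whereas Dusp1 (28.4 CPM) and Zfp36 (22.3 CPM) lay at or near the range of their group. WT_MR_7612 had 18.1 CPM of Egr1, 29.7 of Junb and 8.86 of Btg2. With all 24 mice the log2 fold change of MR in WT was -1.18 for Btg2, -0.84 for Junb, -0.61 for Jun and -1.89 for Fos, each farther from 0 than with 22 mice.

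Mice of the same group were compared to see whether the 9 genes varied together. Over the 36 pairs of genes, log2 CPM with group means removed gave 20 positive and 16 negative Pearson correlations among 22 mice, with a median r of 0.06. The pairs at the positive end were Jun and Klf6 (r = 0.62, rho = 0.54, raw permutation p = 0.00318, adjusted p = 0.061), Jun and Btg2 (r = 0.60, rho = 0.42, raw permutation p = 0.0119, adjusted p = 0.061) and Fos and Klf6 (r = 0.56, rho = 0.45, raw permutation p = 0.0184, adjusted p = 0.076). At the negative end were Fos and Zfp36 (r = -0.64, rho = -0.60, raw permutation p = 0.0049, adjusted p = 0.061) and Jun and Ier2 (r = -0.59, rho = -0.54, raw permutation p = 0.00734, adjusted p = 0.061). For Egr1 and Junb the values were r = 0.53 and rho = 0.57 (raw permutation p = 0.0117, adjusted p = 0.061).

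None of the 36 pairs passed a Benjamini-Hochberg adjusted p of 0.05 in two-sided permutation tests within groups, and 11 had an unadjusted p below it. Without the 2 mice farthest from the median of the first gene, r was 0.59 for Jun and Klf6, 0.46 for Jun and Btg2, 0.29 for Fos and Klf6, -0.51 for Fos and Zfp36, -0.59 for Jun and Ier2 and 0.51 for Egr1 and Junb. With all 24 mice 10 pairs passed, and with library size alone as the scaling 3 did.

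**Figure D3:**
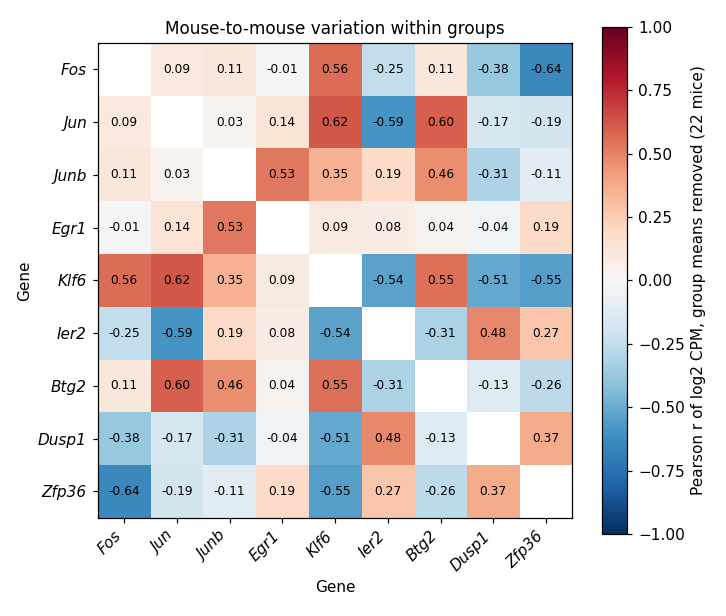
Pearson r between each pair of the 9 genes over 22 mice, from log2 CPM with the group means removed (red positive, blue negative, empty diagonal). Jun, Klf6 and Btg2 have r of 0.55 to 0.62 with each other, and Egr1 has r under 0.20 with every gene except Junb.

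The genes most like the members were sought as those with the highest Pearson r, over the 22 mice, with the mean of the 9 genes after each was put on a common scale. They were Rell1 (r = 0.73), Gmeb2 (0.67), Tapbpl (0.67), Chka (0.67), Tmem263 (0.67), Ccdc14 (0.66), Pdk4 (0.65), Cyb561d1 (0.65), Zrsr2 (0.65) and Llgl2 (0.64). These r hold the group differences that the members were known to have, and are given without a test. With the group means removed the r of Rell1 with the same mean was 0.25, while Pdk4, a kinase that holds back pyruvate dehydrogenase, stood at 0.67, Gmeb2 at 0.64 and Tmem263 at 0.63.

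A wider list of 52 other immediate early and early response genes was read with the test over all genes, of which 46 were among the listed genes and 45 passed the filter. This list and the further lists below were chosen with earlier results of these data known. Their shares and adjusted p therefore describe the lists and are no independent test. MR in WT changed 12 of the 45 (26.7%, beside 13.8% of all genes), 6 higher and 6 lower, or 7 (15.6%, beside 11.1% of all genes) without the library labelled WT_CON_7607, and MR in NRF2 KO changed 6 (13.3%, beside 12.6%), 5 higher and 1 lower. By genotype 4 genes changed on Con (8.89%, beside 2.07%), 2 in each direction. Without that library 1 was higher and 3 were lower, beside 2.34% of all genes called. On MR 1 changed (2.22%, beside 1.93%). It was Klf10, higher by a log2 fold change of 0.57 (SE 0.15, adjusted p = 0.035, edgeR's quasi-likelihood test) and named after its value was seen. The median log2 fold change of the 45 genes was -0.07 in WT and 0.05 in NRF2 KO for MR. None passed the test of the interaction in edgeR, 1 did in DESeq2, and the count at an unadjusted p under 0.05 over all genes was 1008.

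Gadd45b, a stress-response gene also induced early after growth signals in liver, rose with MR in both genotypes. It was at 0.522 to 1.73 CPM in WT Con and 3.46 to 10.9997 in WT MR, and at 0.569 to 2.27 CPM in NRF2 KO Con and 3.39 to 10.7 in NRF2 KO MR. The lowest of its Con levels were in the range of Fos, which was close to the limit of detection. No MR mouse overlapped the Con mice of its genotype. The log2 fold change was 2.44 (SE 0.40) in WT, adjusted p = 0.00046, and 2.67 (SE 0.37) in NRF2 KO, adjusted p = 0.00012 (edgeR's quasi-likelihood test). Sik1, a kinase induced by cAMP, also rose in both, by 0.86 (SE 0.22) and 1.00 (SE 0.19) on the log2 scale. Gadd45b stood at 2.57 and Sik1 at 0.88 in WT without the library labelled WT_CON_7607, and both passed.

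Of the orphan nuclear receptors, Nr4a1 fell by 1.23 on the log2 scale with MR in WT (SE 0.29, adjusted p = 0.0066, edgeR) and had a log2 fold change of 0.00 in NRF2 KO. It was also lower in NRF2 KO than in WT on Con, with a log2 fold change of -1.50 (SE 0.27, adjusted p = 0.0033, edgeR). Its levels were 1.22 to 2.46 CPM in WT Con and below that in the other 3 groups, at 0.422 to 1.21 CPM. The levels in those 3 groups were in the range of Fos, which was close to the limit of detection. Nr4a2 fell by 1.14 with MR in NRF2 KO (SE 0.22) and had -0.60 (SE 0.26) in WT, which did not pass. Nr4a1 stood at -1.10 for MR in WT and -1.37 for genotype on Con without the library labelled WT_CON_7607, both past the threshold, and Nr4a2 at -0.43 for MR in WT. Neither gene passed the test of the interaction (adjusted p = 0.44 and 0.74, or 0.59 and 0.73 without that library, edgeR).

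Per1, an early gene that is also part of the circadian clock, rose with MR in WT by 1.54 (SE 0.32) on the log2 scale and was higher in NRF2 KO than in WT on Con by 1.83 (SE 0.30). In NRF2 KO, MR gave 0.06. The first 2 values were 1.63 and 1.92 without the library labelled WT_CON_7607, and both passed. In WT, MR also lowered Dusp6, a phosphatase of ERK (-0.96, SE 0.19), the kinase gene Pim1 (-1.12, SE 0.31) and the mRNA-decay gene Zfp36l2 (-0.79, SE 0.25), and raised Pim3 (0.77, SE 0.25). The call of Pim1 was lost without WT_CON_7602, WT_MR_7609, WT_MR_7615 or WT_MR_7616. Dusp6 stood at -1.05 and Pim1 at -1.27 without the library labelled WT_CON_7607, and both passed. Those of Zfp36l2 and Pim3 stood in 15 and 5 of 22 fits with a mouse left out, and were lost without the library labelled WT_CON_7607 among others (adjusted p = 0.072 and 0.10, edgeR). In NRF2 KO, MR raised Maff, a small MAF factor that pairs with NRF2 (1.22, SE 0.22), Gadd45a (0.86, SE 0.23) and Ier3 (0.81, SE 0.19). Maff was at 0.72 with MR in WT (adjusted p = 0.055, edgeR), and its interaction did not pass (adjusted p = 0.76, edgeR). Without the library labelled WT_CON_7607 these were 0.78 (adjusted p = 0.062, edgeR) and an adjusted p of 0.89 (edgeR). In WT the values were 0.11 for Gadd45a and 0.01 for Ier3, and their interactions did not pass either (adjusted p = 0.64 and 0.49, edgeR). Without that library the values in WT were -0.003 and 0.11, and the interactions again did not pass (adjusted p = 0.63 and 0.67, edgeR).

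**Figure D4:**
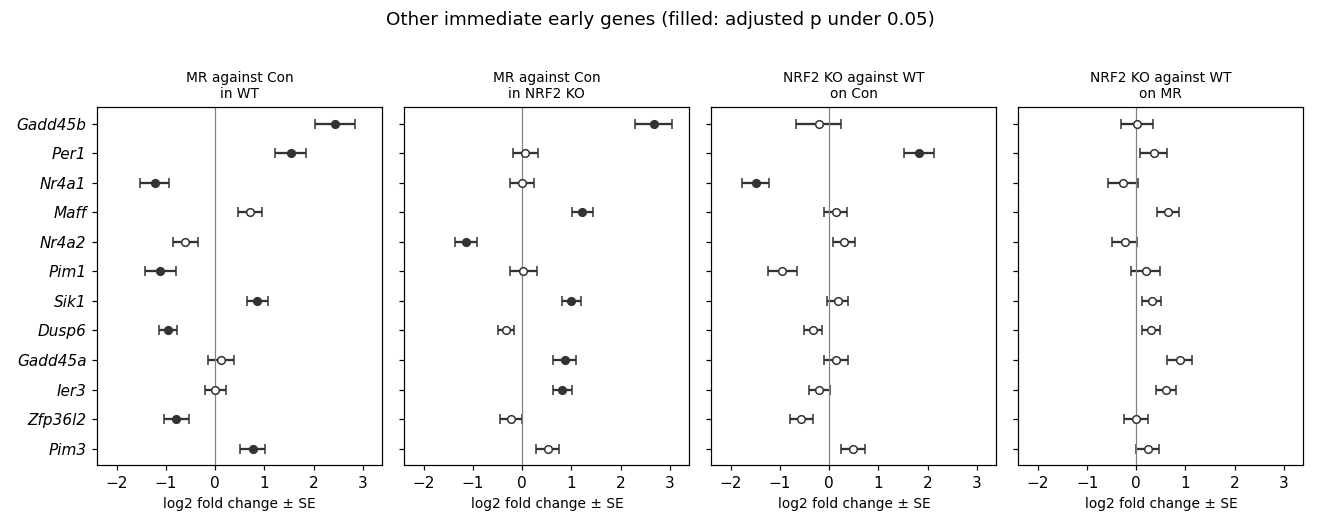
Log2 fold change ± SE of 12 other immediate early genes, those with the largest values among the 17 called in at least 1 of the 4 comparisons (filled points: adjusted p under 0.05 in that comparison; open points: above it). Gadd45b is filled at 2.44 and 2.67 for MR in WT and NRF2 KO, and Nr4a1 and Per1 are filled for MR in WT and for genotype on Con.

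The kinases and factors upstream of these genes were read with the same test. Of 29, including Srf, Elk1, Creb1, Egfr and the Raf, MEK and ERK genes, MR changed 4 in WT (2 higher, 2 lower), which is 13.8% beside 13.8% of all genes. In NRF2 KO it changed 5 (2 higher, 3 lower), or 17.2% beside 12.6%. Genotype changed 1 on Con (3.45% beside 2.07%) and 0 on MR (beside 1.93%) in edgeR. These counts were the same without the library labelled WT_CON_7607. In that fit 11.1% and 13.2% of all genes were called for MR in WT and NRF2 KO, and 2.34% and 2.50% for genotype on Con and MR. Egfr, the receptor of epidermal growth factor, fell by 1.22 (SE 0.26) on the log2 scale with MR in NRF2 KO, and Spry4, a feedback inhibitor of the same pathway, fell by 1.70 (SE 0.54) with MR in WT, or by 1.90 without that library.

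Lists of other inputs, also chosen with earlier results known, were read beside the members as a description. Circadian clock genes differed by genotype on Con, where 10 of 17 were called (58.8%, beside 2.07% of all genes), 7 higher and 3 lower in NRF2 KO, among them Npas2 (-2.51, SE 0.53), Arntl (-2.13, SE 0.38) and Ciart (1.89, SE 0.39) on the log2 scale. MR changed 8 clock genes in WT (47.1%, beside 13.8%) and 2 in NRF2 KO (11.8%, beside 12.6%), and genotype on MR changed 2 (11.8%, beside 1.93%). Without the library labelled WT_CON_7607 the counts were 9 for genotype on Con (52.9%, beside 2.34% of all genes) and 6 for MR in WT (35.3%, beside 11.1%). Npas2, Arntl and Ciart then stood at -2.50, -2.27 and 1.94 for genotype on Con, all past the threshold. The labels give no hour of death and no time to freezing for any mouse. A difference between groups in either cannot be told apart from diet and genotype here, and its part in the values of the 9 genes was not tested. The shares for the lists that follow stand beside the same 13.8% of all genes for MR in WT and 12.6% in NRF2 KO. Of 8 heat shock genes 4 rose with MR in WT (50%), among them Hsph1 (0.90, SE 0.17, or 0.95 without that library), with 1 higher and 1 lower in NRF2 KO (25%). Glucocorticoid-induced genes had 3 of 9 called with MR in WT (33.3%) and 2 in NRF2 KO (22.2%), all higher. The fasting and cAMP list had 2 of 7 called with MR in each genotype (28.6%), 1 higher and 1 lower. Those in WT were Sik1 and Nr4a1, which are also on the wider list of immediate early genes. Hypoxia genes had 2 of 9 called in WT (22.2%), 1 higher and 1 lower, and 0 in NRF2 KO in edgeR. By genotype on Con, 2 of 9 glucocorticoid-induced genes (22.2%) and 1 of 8 heat shock genes (12.5%) were called, all higher in NRF2 KO. Also called were 1 of 7 fasting and cAMP genes (14.3%) and 1 of 9 hypoxia genes (11.1%), both lower, beside 2.07% of all genes. On MR, 2 of 9 glucocorticoid-induced genes (22.2%) were called, both higher, beside 1.93%. No heat shock, fasting and cAMP or hypoxia gene was called there. Per1 is on the clock, glucocorticoid-induced and wider lists, so the lists share calls. Without the library labelled WT_CON_7607 the counts for MR in WT were 4 heat shock (50%), 1 glucocorticoid-induced (11.1%), 2 fasting and cAMP (28.6%) and 1 hypoxia gene (11.1%), beside 11.1% of all genes. For genotype on Con each of these lists then had 1 call (12.5%, 11.1%, 14.3% and 11.1% in that order), beside 2.34% of all genes.

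Markers of other liver cells moved with MR in part. In WT, 2 of 6 Kupffer cell markers (Csf1r and Cd5l), 4 of 6 stellate cell markers and 3 of 4 bile duct markers fell, and in NRF2 KO 0, 3 and 1. These are 33.3%, 66.7% and 75% in WT, beside 6.91% of all genes called lower, and 0, 50% and 25% in NRF2 KO, beside 6.34%. Without the library labelled WT_CON_7607 the counts in WT were 1, 3 and 3 (16.7%, 50% and 75%), beside 11.1% of all genes called in either direction. Of the 5 hepatocyte markers, 1 fell with MR in WT (Apoa1) and 2 in NRF2 KO (Apoa1 and Fabp1), which is 20% and 40%, and Apoa1 was higher in NRF2 KO than in WT on MR (20%, beside 0.555% of all genes called higher). The summed Kupffer cell markers were at 257 to 357 CPM in WT Con, 208 to 237 in WT MR, 222 to 340 in NRF2 KO Con and 196 to 275 in NRF2 KO MR. The summed stellate cell markers were at 448 to 714, 390 to 497, 503 to 573 and 439 to 554 CPM in the same order, and the bile duct markers at 28.2 to 37.6, 8.74 to 17.4, 19.5 to 37.7 and 12.05 to 18.1 CPM. Endothelial markers had 0 of 6 called in WT and 1 in NRF2 KO, and of the tested neutrophil markers 1 of 3, of B cell markers 0 of 3 and of T and NK cell markers 0 of 1 were called with MR in WT (0 neutrophil markers without the library labelled WT_CON_7607). Red blood cell markers had 1 of 4 called with MR in each genotype. Listed markers with 0 counts in at least 1 library were Csf3r, Cd3e, Cd8a and Epcam. The part of these cells in the levels of the 9 genes was not tested.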

How the data were processed

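Liver RNA of 24 mice was made into QuantSeq 3′ libraries, 1 per mouse. The authors deposited unnormalized counts of reads for each gene, and the signal values are the same counts that the authors divided by DESeq2 size factors over all 24 mice (largest relative deviation 5.1e-15). The submitters' processing notes name R 3.4.3, DESeq2 1.18.1 and the builds GRCm38 and mm10, and the study's methods name the Lexogen QuantSeq FWD pipeline on the Bluebee platform for mapping and read counts, without naming the aligner. No values of the authors' own comparisons were used. The members and all gene lists were chosen with earlier results of these data known.

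Counts of the 22 mice were fitted in R 4.3.3 with edgeR 4.0.16 (TMM, filter by expression, robust quasi-likelihood F-tests, 1 mean per group), leaving 13336 of 15160 genes and taking out 1824. Calls were made at a Benjamini-Hochberg adjusted p under 0.05 over all genes tested. The interaction is the effect of MR in NRF2 KO minus that in WT. Log2 CPM used a prior count of 2. Named are all members, up to 12 called genes of the wider list of immediate early genes by size, up to 3 called genes of each other list, 10 genes by likeness, and Nfe2l2. Of the list symbols, 4 were matched through RefSeq synonyms. Correlations used 100000 permutations of mice within groups.

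The alternatives were DESeq2 size factors, library size only, all genes with at least 1 count, at least 10 counts in every mouse, DESeq2 1.42.0, only the groups compared, all 24 mice, limma 3.58.1 on log2 of the deposited signal plus 1, and each of 22 mice left out. No pair of libraries in a group was alike within sampling noise (lowest chi-square per degree of freedom 8.32). No technical replicates exist, so the precision is the SD between mice and the model's SE. The p-values of edgeR set a group difference against the spread between mice as modelled. Figures were drawn with matplotlib 3.10.9.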

Additional observations from a re-analysis of the deposited data

Results flagged for a closer look

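Of 36 groups of mice (9 genes in 4 groups), 3 held a mouse that stood apart by Dixon's test, where chance flags about 1 group in 20. Egr1 was at 55.3 CPM in the WT Con mouse WT_CON_7602, while the other 4 mice of that group were at or under 17.4 CPM. Jun was at 44.9 CPM in the WT MR mouse WT_MR_7609 beside 13.5 to 18.7 CPM in the others. Junb was at 18.9 CPM in the WT MR mouse WT_MR_7616 beside 28.3 to 31.4 CPM in the others.

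Between WT and NRF2 KO the effect of MR on Egr1 differed by 3.77 on the log2 scale, and that on Junb by 1.24, in the interaction of genotype and diet fitted by edgeR over all genes. These members were chosen with results known, so both values are a description.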

How the results depend on the processing

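No paired analysis was possible because the mouse numbers are unique and no number is shared between groups. Depth limits Fos, with 2 to 30 counts per library, and the lowest levels of Nr4a1 and of Gadd45b on Con were in the CPM range of Fos. No value past the threshold changed direction. Of the values of the members that did not pass, 4 changed sign under some alternative: Fos for MR in NRF2 KO (-0.12, range -0.33 to 0.03), and, by genotype, Jun on MR (-0.27, range -0.44 to 0.19), Zfp36 on MR (-0.07, range -0.19 to 0.05) and Dusp1 on Con (0.01, range -0.12 to 0.10). The members were chosen with results known, so their calls in these fits are a description of how the values depend on single mice. In all 22 fits with a mouse left out, Junb was past the threshold in all 5 comparisons and Egr1 in both MR in NRF2 KO and genotype on MR. Egr1 was past it for the interaction in 14 of 22 such fits (lost without WT_MR_7609, WT_MR_7611, WT_MR_7616, KO_CON_7617, KO_CON_7618, KO_CON_7620, KO_MR_7625 or KO_MR_7628), Btg2 for MR in WT in 20 (lost without WT_CON_7607 or WT_MR_7616), Klf6 for MR in NRF2 KO in 18 (lost without KO_CON_7617, KO_CON_7618, KO_CON_7620 or KO_MR_7629), and Dusp1 in 15 (lost without KO_CON_7617, KO_CON_7621, KO_MR_7625, KO_MR_7627, KO_MR_7628, KO_MR_7629 or KO_MR_7631). Fos for MR in WT was past it in 9 of the 20 fits in which it passed the filter, and it was lost without WT_CON_7607, any WT MR mouse and 5 others. Over the other alternatives the members past the threshold numbered 1 to 4 for MR in WT and 2 to 6 for MR in NRF2 KO. Library size only gave the 1 in WT, with 1960 of 13336 genes called, and the 6 in NRF2 KO, with 2785 called. All 24 mice gave the 4 in WT, with 1793 of 13319 genes called, and the 2 in NRF2 KO, with 1216 called. The genotypes compared on Con gave 1, those on MR gave 2, and the interaction gave 2. The calls over all genes there ran from 99 to 444, from 232 to 600 and from 4 to 36. The cause of the shifts was not tested.

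Library size alone as the scaling moved the median over all genes by 0.16 on the log2 scale for MR in NRF2 KO. It gave 2785 calls there in place of 1677, and 86.1% of calls were higher in place of 49.6%. The share higher went from 50.0% to 73.2% for MR in WT, from 38.8% to 27.6% for genotype on Con and from 50.0% to 28.6% for the interaction. DESeq2 called 444 genes for genotype on Con in place of 276, 496 for genotype on MR in place of 258 and 36 for the interaction in place of 6. Fits of only the groups compared gave 99 and 600 calls for genotype on Con and on MR. Of the other immediate early genes, the filter of at least 10 counts in every mouse, which tests fewer genes, left 6 calls for MR in WT in place of 12. DESeq2 gave 10 for MR in NRF2 KO in place of 6, 2 for genotype on MR in place of 1 and 1 for the interaction in place of 0. Genotype on MR gave 0 calls with all 24 mice and 2 with limma on the deposited values, and genotype on Con 2 with only its groups, in place of 4. For the pairs of members, 0 passed with group means removed, 7 without centring, 10 with all 24 mice and 3 with library size only. With each mouse left out in turn, calls ran from 181 to 314 for genotype on Con (the former without WT_CON_7603) and from 3 to 12 for the interaction, and, among the other immediate early genes, from 6 to 14 for MR in WT (7 without WT_CON_7607, 7 without WT_MR_7615 and 6 without WT_MR_7616), from 0 to 2 for genotype on MR and from 0 to 1 for the interaction. The counts of the other comparisons stayed within 1.5 times.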
